A study of Homo sapiens with 24 samples.

Results

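The response of SNU1079 cells to YC-1 at 6 h was set against that of RBE cells, gene by gene, as an interaction: the change with YC-1 in SNU1079 minus the change with YC-1 in RBE. Both are established human lines of bile duct cancer (cholangiocarcinoma), and the labels describe both as IDH1-mutant and as expressing SULT1A1 highly. YC-1, a benzylindazole, activates soluble guanylate cyclase and is also used to inhibit HIF-1, and the series title concerns alkylators that act through sulfonation. Of the 24 messenger RNA libraries of the series, the 12 labelled 6 h in their titles entered the comparison: SNU1079 with YC-1, SNU1079 with the solvent DMSO, RBE with YC-1 and RBE with DMSO, with 3 libraries each. The labels give no dose. A separate time label gives 16 h for all DMSO samples and 6 h for all YC-1 samples, against the titles and the design text, which were followed here. Of 57820 rows in the deposited table, 16766 genes reached a normalised count of 10 in at least 3 of the 12 libraries and were tested.

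Each gene was placed by its level under DMSO. It was called expressed in a line when its normalised count was at least 10 in all 3 DMSO libraries of that line, and not expressed when it was under 10 in all 3; the remaining genes were at the border in at least 1 line. Of the tested genes, 13172 (78.6%) were expressed in both lines, 678 in SNU1079 only, 814 in RBE only, 259 in neither, and 1843 were at the border. This state matters for reading the difference, because a gene under 10 in a line has little room to fall there. Unless another state is given, each gene named here was expressed in both lines.

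As background, SULT1A1 is a cytosolic sulfotransferase that transfers sulfonate to phenols and benzylic alcohols, and some of the products are reactive electrophiles. Damaged or starved cells phosphorylate the initiation factor eIF2α, which raises translation of the transcription factor ATF4, and ATF4 in turn drives genes of amino acid supply and the factor CHOP (DDIT3). Cells with damaged DNA also halt entry into S phase, which lowers genes driven by E2F factors, while ERK signalling raises its own inhibitors, the dual-specificity phosphatases and the sprouty proteins.

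Summed normalised counts were 19950000 to 21970000 in the 12 libraries, and a rough depth taken from the commonest low value was 12020000 to 41000000 reads. SNU1079 YC-1 replicate 1 stood apart: the SD of its log2 deviations from the group mean was 0.411, against 0.116 to 0.246 in the other 11 libraries. Its deviations followed the GC content of the transcripts, with a Spearman rho of 0.819 across 10555 genes of this library, and its own change from DMSO had a rho of 0.534 with GC, against -0.220 and -0.181 in replicates 2 and 3 and 0.0864 to 0.137 in the RBE YC-1 libraries. Deviations followed GC in other libraries too. The rho was -0.745 and -0.728 in SNU1079 YC-1 replicates 2 and 3, whose group mean includes replicate 1. It was 0.592 and -0.716 in RBE DMSO replicates 1 and 2 and 0.410 in SNU1079 DMSO replicate 3. In the remaining libraries it was -0.273 to 0.113. These are correlations across genes within a library, and genes are not independent replicates. The part of GC content in the results was not tested, and main results are given with and without this library. Mitochondrially encoded genes held 9.54 ± 1.86% of the signal in SNU1079 with YC-1, 7.70 ± 0.76% in SNU1079 with DMSO, 9.73 ± 1.53% in RBE with YC-1 and 7.33 ± 0.50% in RBE with DMSO (SD, n = 3 each). The difference between the lines was -0.56 percentage points (exact permutation within lines, two-sided p = 0.79, smallest possible 0.005). Markers of bile duct epithelium were present in all groups, with 12 or 13 of 17 matched markers reaching 10. Of 18 matched hepatocyte markers 3 to 7 reached 10 per group, with APOA2, APOB and APOC3 at 0 in every library and SERPINA1 at means of 1217 to 1361; HNF4A had means under 1 in SNU1079 and of 139.6 with YC-1 and 159 with DMSO in RBE. Of 13 stromal and endothelial markers 4 or 5 reached 10, with DCN and LUM at 0 in every library, while COL1A1 had means of 2409.6 with YC-1 and 3429.9 with DMSO in SNU1079 and 26.2 with YC-1 and 36.6 with DMSO in RBE. Of 14 leukocyte markers 3 or 4 reached 10, with NKG7 at 0 in every library and CD68 at means of 1192 to 1503. Their part in the results was not tested.

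The YC-1 effect differed between the lines for 285 genes, 1.7% of those tested (limma, Benjamini-Hochberg adjusted p under 0.05). For 132 genes (0.787%) the difference was positive, which means that YC-1 moved the gene further up, or less far down, in SNU1079 than in RBE, and for 153 (0.913%) it was negative. In the same fit YC-1 changed 5275 genes in SNU1079 (31.5%) and 4631 in RBE (27.6%), of which 1425 rose and 1690 fell in both lines. The median difference was 1.502 on the log2 scale among the positive calls and -1.06 among the negative ones, and 0.01 over all genes tested. For all 285 genes the libraries of the lines did not overlap once the DMSO mean of the line was subtracted, as was so for 29% of the genes tested. At an unadjusted p under 0.05 there were 2356 genes. The calls nearest the threshold were FAM212B (-1.28) and RHOQP1 (-2.30, expressed in SNU1079 only), both at adjusted p = 0.0498, and the genes just outside it were CSRNP1 (-0.88) and LINC00511 (0.69), both at adjusted p = 0.0503 by limma.

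Without SNU1079 YC-1 replicate 1 the count was 1420 genes (8.47%), 724 positive (4.32%) and 696 negative (4.15%), and all 285 genes were called the same way. Over 16242 genes with an annotated transcript, the difference had a Spearman rho of -0.007 with GC content in the full comparison and of -0.328 without that library. Without SNU1079 YC-1 replicate 2 or 3 or RBE DMSO replicate 1 there were 224, 210 and 194 genes, and without any of the other 8 libraries between 123 and 175. Scaling the libraries to ribosomal protein genes moved the median difference of all genes to -0.13 and gave 75 positive and 197 negative calls. In bulk RNA from a culture, a change in all cells and a larger change in some of them cannot be told apart.

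**Figure D1:**
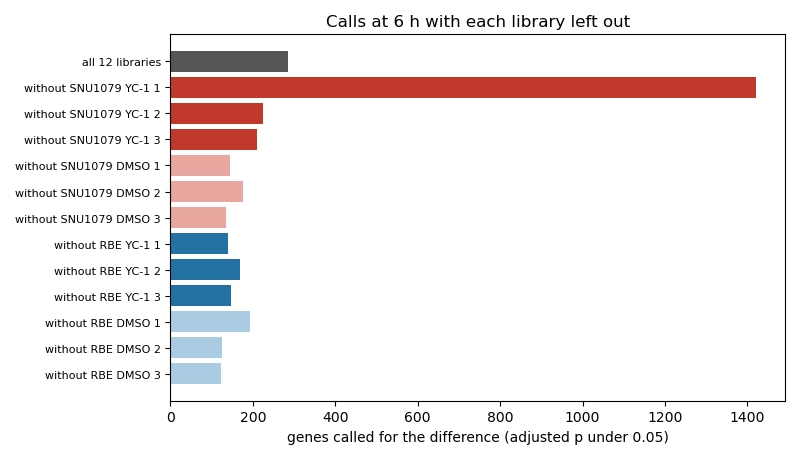
Number of genes whose YC-1 effect at 6 h differed between SNU1079 and RBE (limma, adjusted p under 0.05; horizontal axis) with all 12 libraries and with each library left out in turn (rows). Leaving out SNU1079 YC-1 replicate 1 gives 1420 genes against 285 with all libraries, and no other omission raises the count.

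Of the 285 genes, 220 (77.2%) were expressed in both lines under DMSO, 19 in SNU1079 only, 24 in RBE only, 7 in neither, and 15 were at the border. The share expressed in both was close to the 78.6% of all genes tested. Among the 220, 19 rose in SNU1079 without a call in RBE and 51 fell there without a call in RBE. In RBE alone 35 were called up and 22 down. Another 34 rose in both lines and 22 fell in both, by different amounts, and 37 were called in opposite directions. YC-1 brought the lines closer in level for 96 of the 220 genes (43.6%), against 47.7% of all genes expressed in both.

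**Figure D2:**
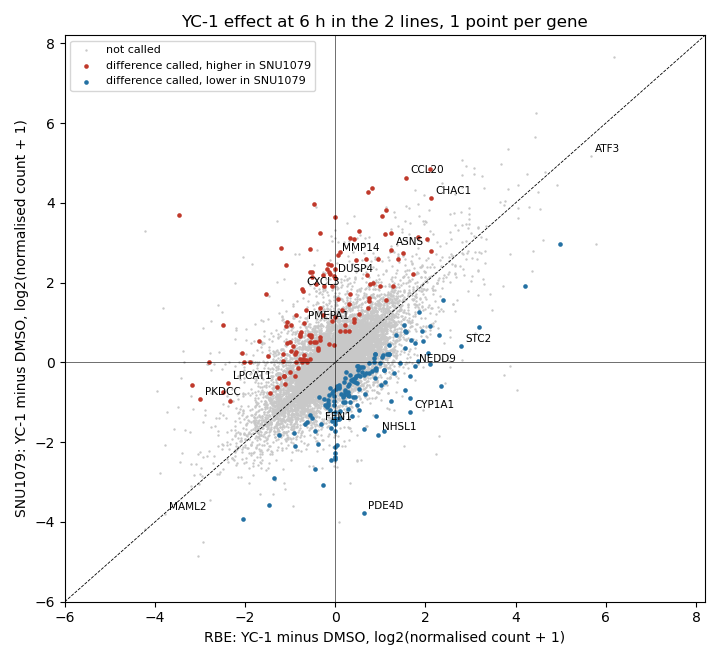
Each point is 1 of 16766 genes, with its YC-1 minus DMSO change at 6 h in RBE on the horizontal axis and in SNU1079 on the vertical axis, both as log2(normalised count + 1); the dashed line marks equal change. Red points (132 genes) lie above the line and blue points (153 genes) below it, and ATF3, at 5.18 in SNU1079 and 5.66 in RBE, lies near it without a call.

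ATF4 and 5 other members of its stress response list had positive differences, and 1 member a negative one. ATF4 (ENSG00000128272, chr22:39519695-39522685, plus strand, GRCh38) had 7816, 6520.2 and 6995 normalised counts in SNU1079 with YC-1, against 3476, 3277 and 3593 with DMSO. RBE cells had 6421, 6389 and 6912 with YC-1, against 7460.4, 6650.2 and 6793 with DMSO. The SNU1079 groups did not overlap, while in RBE the YC-1 and DMSO values overlapped, at about the level of SNU1079 under YC-1. The difference was 1.12 ± 0.12 (log2 ± SE, limma adjusted p = 0.000922), and 1.05 without SNU1079 YC-1 replicate 1. ASNS (ENSG00000070669, chr7:97852118-97872542, minus strand), which makes asparagine, had 8300.0, 8851 and 10447 in SNU1079 with YC-1, against 1266, 1358 and 1239 with DMSO. RBE cells had 8654, 8698 and 8786 with YC-1, against 3792, 3828 and 3436 with DMSO. With YC-1 the lines had overlapping levels, while with DMSO the level was lower in SNU1079. Its difference was 1.59 ± 0.13 (adjusted p = 0.00015), and 1.66 without that library. CHAC1 (ENSG00000128965, chr15:40952962-40956519, plus strand), an enzyme that breaks down glutathione, had 1523, 903 and 859.6 in SNU1079 with YC-1, against 53.4, 64.8 and 63.2 with DMSO. RBE cells had 1275, 1252 and 1264 with YC-1, against 364, 212 and 309 with DMSO. It rose in both lines, by 4.11 in SNU1079 and 2.13 in RBE on the log2 scale, and the difference was 1.98 ± 0.32 (limma adjusted p = 0.0111).

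Of 26 tested members of an ATF4 and CHOP list, 6 had a positive difference and 1 a negative one, against 0.787% and 0.913% of all genes. The other positive members were PSAT1 of serine synthesis (1.17 ± 0.16), PCK2, the mitochondrial phosphoenolpyruvate carboxykinase (1.32 ± 0.23), and CARS, the cysteinyl-tRNA synthetase (0.70 ± 0.13). The list's median difference was 0.09, with the opposite sign (-0.06) after scaling to ribosomal protein genes, against 0.01 over all genes, and 21 members rose in SNU1079 and 21 in RBE, against 15.1% and 12.9% of all genes. DDIT3 and ATF3 did not pass: DDIT3 was at -0.084 ± 0.16 (limma adjusted p = 0.892) and ATF3 at -0.48 ± 0.11 (adjusted p = 0.0522). ATF3 passed in 6 of 27 other settings, among them that without SNU1079 YC-1 replicate 1 (-0.445, limma adjusted p = 0.0166). STC2, a secreted glycoprotein, was the negative member and was not expressed in SNU1079. It had 0, 0.532 and 0.538 in SNU1079 with YC-1 and 0 in all 3 libraries with DMSO, against 2299, 2486 and 2002 in RBE with YC-1 and 366, 289 and 323 in RBE with DMSO. Without SNU1079 YC-1 replicate 1 the list gave 6 positive and 5 negative members, against 4.32% and 4.15% of all genes.

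ASNS and CHAC1 are shown with their promoters because both carry the letters of an ATF4-type element, TGATGNAA, in the RefSeq window from 250 bases before to 50 after the gene start (GRCh38.p14). Capitals mark the match, on either strand. The stretch up to 10 bases after the start is printed for ASNS (chr7:97872399-97872658, minus strand) and CHAC1 (chr15:40953221-40953480, plus strand).
ASNS: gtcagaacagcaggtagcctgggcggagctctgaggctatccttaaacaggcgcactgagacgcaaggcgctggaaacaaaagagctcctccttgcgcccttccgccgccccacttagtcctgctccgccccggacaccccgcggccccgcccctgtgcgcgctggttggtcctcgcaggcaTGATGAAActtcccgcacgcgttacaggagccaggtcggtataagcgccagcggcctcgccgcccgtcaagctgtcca
CHAC1: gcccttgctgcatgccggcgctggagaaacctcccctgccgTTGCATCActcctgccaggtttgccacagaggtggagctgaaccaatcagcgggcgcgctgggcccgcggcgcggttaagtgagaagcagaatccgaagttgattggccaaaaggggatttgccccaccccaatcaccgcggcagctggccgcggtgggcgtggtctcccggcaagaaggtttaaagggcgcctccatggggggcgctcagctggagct
The match began 68 bases before the RefSeq start in ASNS and 209 bases before it in CHAC1. For CHAC1 the printed stretch lies inside the gene interval given above, whose start differs from the RefSeq start. These letters were in 3.62% of 35116 RefSeq windows and in 2.77% of tested genes with a window. They were in 5 of the 21 list members with a window and in 2 of the 6 called members with one. A match is a description of the sequence and not evidence of binding.

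**Figure D3:**
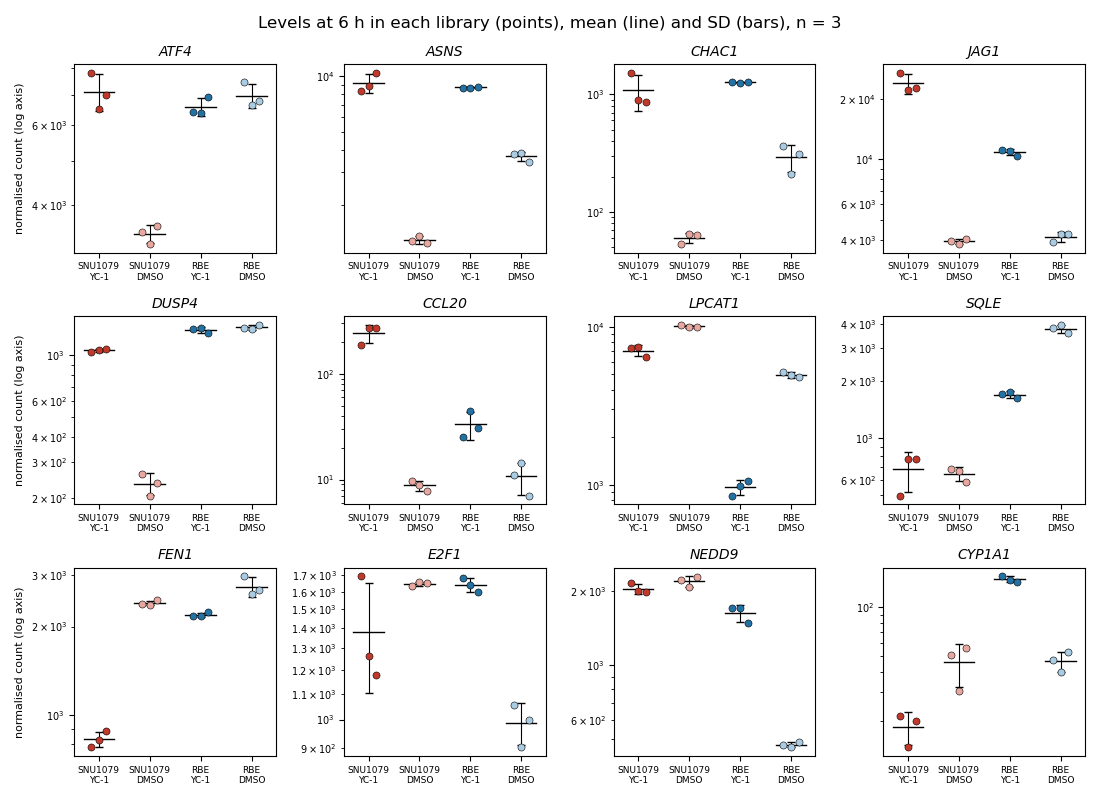
Normalised counts at 6 h (log axis, a separate range in each panel) of 12 genes in SNU1079 with YC-1, SNU1079 with DMSO, RBE with YC-1 and RBE with DMSO, with 1 point per library, a line at the mean and bars of 1 SD (n = 3). ATF4 and DUSP4 differ between treatments in SNU1079 and overlap in RBE, SQLE is lower with YC-1 in RBE and overlaps in SNU1079, LPCAT1 is lower with YC-1 in both lines, and CYP1A1 moves in opposite directions.

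In the list of MAP kinase phosphatases and sprouty proteins, called differences had both signs. DUSP4 (ENSG00000120875), a nuclear MAP kinase phosphatase, had 1035, 1067 and 1072 in SNU1079 with YC-1, against 263, 206 and 239 with DMSO. RBE cells had 1353, 1365 and 1287 with YC-1, against 1359, 1342 and 1414 with DMSO. The RBE groups overlapped and the SNU1079 groups lay far apart, which gave a difference of 2.21 ± 0.14 (limma adjusted p = 3.01e-05), and 2.22 without SNU1079 YC-1 replicate 1. SPRY4 (ENSG00000187678, chr5:142310427-142326455, minus strand), a sprouty inhibitor of receptor kinase signalling, had 801, 663 and 622 in SNU1079 with YC-1, against 259, 252 and 301 with DMSO. In RBE it had 698, 653 and 636 with YC-1, against 785, 843 and 881 with DMSO. As with ATF4, the SNU1079 level under YC-1 came near the RBE level, from a lower DMSO level, and the difference was 1.69 ± 0.17 (adjusted p = 0.00071). SPRY2 rose in both lines and had a difference of 0.87 ± 0.14. Against these, DUSP1, a phosphatase of p38 and JNK as well as ERK, rose by 1.56 in SNU1079 and 2.38 in RBE, a difference of -0.82 ± 0.13. The ERK phosphatase DUSP7 (-0.96 ± 0.18) and the JNK phosphatase DUSP16 (-0.87 ± 0.15) also had negative differences. In all, 3 of 14 tested members of this list were positive and 3 negative, against 0.787% and 0.913% of all genes. Without SNU1079 YC-1 replicate 1 they were 5 and 4, against 4.32% and 4.15% of all genes.

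The EGF receptor ligands HBEGF and TGFA and the Notch ligand JAG1 had positive differences. HBEGF (ENSG00000113070, chr5:140332843-140346631, minus strand), a membrane-bound EGF receptor ligand, had 22288, 21116 and 22329 in SNU1079 with YC-1, against 3202, 3156 and 3111 with DMSO. RBE cells had 9609, 9776 and 9637 with YC-1, against 2251, 2238 and 2154 with DMSO. It rose in both lines, with a difference of 0.67 ± 0.086 (limma adjusted p = 0.00319). TGFA, another ligand of this receptor, fell by 0.69 in RBE and stood at 2455 ± 235 with YC-1 and 2350.5 ± 165 with DMSO in SNU1079 (SD, n = 3 each), a difference of 0.75 ± 0.13 (0.83 without SNU1079 YC-1 replicate 1). ERRFI1, which inhibits the receptor, rose in both lines (1.91 in SNU1079, 1.28 in RBE), a difference of 0.64 ± 0.13, a call lost in 10 of 12 fits that each left out 1 library. These were the 3 called members of 14 tested in the EGF receptor list, all positive, against 0.787% of all genes. The list's median difference was 0.0081, and its sign turned in 4 of 15 settings. Without SNU1079 YC-1 replicate 1 there were 3 positive and 1 negative members, against 4.32% and 4.15% of all genes. JAG1 (ENSG00000101384, chr20:10637684-10673999, minus strand), a Notch ligand that directs bile duct formation, had 26850.5, 21986 and 22554 in SNU1079 with YC-1, against 3937, 3806 and 4022 with DMSO. RBE cells had 11118, 10985 and 10447 with YC-1, against 3879, 4258 and 4264 with DMSO. The DMSO levels of the lines overlapped, both rose, and the rise was larger in SNU1079, by 1.203 ± 0.12 (limma adjusted p = 0.000692), or 1.11 without SNU1079 YC-1 replicate 1. MFNG, a glycosyltransferase that modifies Notch receptors, was the other called member of 22 tested in the Notch list (2.01 ± 0.37), where 0.787% of all genes were positive. Without SNU1079 YC-1 replicate 1 the Notch list had 2 positive and 2 negative members, against 4.32% and 4.15% of all genes. The mastermind coactivators MAML2 and MAML3 fell in both lines, with log2 changes of -3.81 and -4.85 in SNU1079 and -3.78 and -3.05 in RBE. Their differences were -0.032 ± 0.50 (adjusted p = 0.99) and -1.81 ± 1.07 (limma adjusted p = 0.503), and that of MAML2 changed sign between settings. SOX9, a biliary transcription factor, rose by 1.71 in SNU1079 and had 1842 ± 176 with YC-1 against 1471 ± 76.3 with DMSO in RBE (SD, n = 3 each), a difference of 1.39 ± 0.19 (limma adjusted p = 0.00397).

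In the NF-kB and cytokine list 4 members had a called difference, all positive, against 0.787% of all genes. Of these members only ICAM1 was expressed in both lines under DMSO. CCL20 (ENSG00000115009, chr2:227805739-227817564, plus strand), a chemokine for lymphocytes and dendritic cells, was at the border in RBE and not expressed in SNU1079 under DMSO. It had 189, 272 and 273 in SNU1079 with YC-1, against 9.68, 8.95 and 7.79 with DMSO. RBE cells had 25.3, 44.7 and 31 with YC-1, against 10.9, 14.4 and 7.04 with DMSO. Both lines rose, SNU1079 by far more, and the difference was 3.07 ± 0.42 (limma adjusted p = 0.00464). CXCL3 (ENSG00000163734, chr4:74036589-74038807, minus strand), a neutrophil chemokine expressed in SNU1079 only, had 112, 125 and 96.5 in SNU1079 with YC-1, against 30.6, 37.6 and 24 with DMSO. In RBE it had 3.4, 3.1 and 2.46 with YC-1, against 5.59, 5.57 and 5.74 with DMSO, all under 10. The difference was 2.58 ± 0.35 (adjusted p = 0.0046), with a rise in SNU1079 and a fall among very low values in RBE. IL6, expressed in neither line under DMSO, had 106, 80.4 and 87.5 in SNU1079 with YC-1 and 6.5, 9.86 and 8.82 with DMSO, against 2, 0 and 0 in RBE with YC-1 and 0 in all 3 libraries in RBE with DMSO. Its difference of 2.78 ± 0.59 depends on the pseudocount, since RBE was at or near 0. ICAM1, an adhesion molecule, fell in RBE to a mean of 11.1 with YC-1, against 22.7 with DMSO, and had a difference of 1.35 ± 0.30, a call lost in 10 of 12 fits that each left out 1 library. CXCL8, another neutrophil chemokine, rose by 3.01 in SNU1079 and 2.25 in RBE, and its difference of 0.76 ± 0.24 did not pass (limma adjusted p = 0.148), though it passed in 3 of 27 other settings, among them that without SNU1079 YC-1 replicate 1 (0.95, adjusted p = 0.0113). Of 23 tested members of the NF-kB and cytokine list 4 were positive and 0 negative, against 0.787% and 0.913% of all genes. The median was -0.06 (turning positive in 2 of 15 settings, to 0.861 with both times pooled). Without SNU1079 YC-1 replicate 1 the counts were 5 and 4, against 4.32% and 4.15% of all genes.

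CCL20 and CXCL3 are shown with their promoters because both windows hold an NF-kB-type element (GGG, any 2 bases, then TTTCC, searched on both strands) (RefSeq, GRCh38.p14, CCL20 at chr2:227813592-227813851, plus strand, CXCL3 at chr4:74038680-74038939, minus strand, capitals marking the match).
CCL20: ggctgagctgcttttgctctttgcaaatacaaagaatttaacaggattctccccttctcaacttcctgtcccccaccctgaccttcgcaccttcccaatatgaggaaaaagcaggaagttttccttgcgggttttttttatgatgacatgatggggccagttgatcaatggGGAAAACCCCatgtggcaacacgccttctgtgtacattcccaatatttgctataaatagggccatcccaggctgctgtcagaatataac
CXCL3: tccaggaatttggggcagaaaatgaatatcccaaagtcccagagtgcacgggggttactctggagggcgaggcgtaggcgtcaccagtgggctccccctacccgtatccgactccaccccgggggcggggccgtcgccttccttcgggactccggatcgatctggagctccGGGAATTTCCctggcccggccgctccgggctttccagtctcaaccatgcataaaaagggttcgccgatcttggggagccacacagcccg
In both genes the match began 79 bases before the RefSeq start. For CCL20 the printed stretch lies inside the gene interval given above, whose start differs from the RefSeq start. The letters were in 1.91% of all windows and in 2.89% of tested genes with a window. They were in 12 of the 19 list members with a window and in 3 of the 4 called ones, the third being IL6.

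Of 24 tested genes of cholesterol synthesis 4 had a called difference, all positive, against 0.787% of all genes. SQLE (ENSG00000104549), which oxidises squalene, had 496, 775 and 778 in SNU1079 with YC-1, against 687, 672 and 587 with DMSO. In RBE it had 1713, 1762 and 1631 with YC-1, against 3816, 3982 and 3583 with DMSO. Its SNU1079 value in replicate 1 lay below the others, and the difference was 1.203 ± 0.22 with that library and 1.42 without it (adjusted p = 0.017 with it, limma). FDFT1, the squalene synthase, had a difference of 0.66 ± 0.12. In 12 fits that each left out 1 library, SQLE and FDFT1 lost their calls 4 and 4 times. The list's median difference was 0.31. In SNU1079 3 members fell and 1 rose, and in RBE 8 fell and 0 rose, against 16.4% of all genes that fell in SNU1079 and 14.7% in RBE. Without SNU1079 YC-1 replicate 1, 8 members were positive, against 4.32% of all genes. INSIG1, which retains the sterol sensor in the endoplasmic reticulum, fell in both lines (log2 change -1.65 in SNU1079 and -2.05 in RBE), and its difference of 0.39 ± 0.22 did not pass (adjusted p = 0.471).

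Genes of S phase entry and DNA replication had negative differences throughout. FEN1 (ENSG00000168496, chr11:61792637-61797244, plus strand), the flap endonuclease that trims Okazaki fragments, had 781, 823 and 882 in SNU1079 with YC-1, against 2391, 2375 and 2457 with DMSO. RBE cells had 2178, 2167 and 2236 with YC-1, against 2964, 2573 and 2658 with DMSO. It fell in both lines and further in SNU1079, with a difference of -1.22 ± 0.11 (limma adjusted p = 0.000515), or -1.18 without SNU1079 YC-1 replicate 1. E2F1 (ENSG00000101412, chr20:33675683-33686404, minus strand), a transcription factor of S phase entry, had 1693, 1265 and 1177 in SNU1079 with YC-1, against 1634, 1657 and 1651 with DMSO. RBE cells had 1684, 1641 and 1596 with YC-1, against 1054, 903 and 1000.1 with DMSO. Here RBE rose by 0.74, SNU1079 had no call, and replicate 1 of SNU1079 with YC-1 lay above both of its mates. The difference was -1.01 ± 0.17 with that library and -1.17 without it (adjusted p = 0.0139 with it, limma).

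All 29 tested members of the G1/S and replication list were expressed in both lines, and all had a difference below 0, with a median of -0.53. Of these, 10 passed, all negative, against 0.913% of all genes. Besides FEN1 and E2F1 they were E2F2 (-0.98), CCNE1, the cyclin that drives S phase entry (-0.94), the licensing factor CDC6 (-0.84), the helicase subunits MCM2 (-0.84), MCM3 (-0.54), MCM4 (-0.79) and MCM7 (-0.47), and GINS2 of the replicative helicase (-0.66). In SNU1079 14 members fell and 0 rose, while in RBE 9 rose and 4 fell, against 16.4% of all genes that fell and 15.1% that rose in SNU1079 and 12.9% that rose and 14.7% that fell in RBE. Without SNU1079 YC-1 replicate 1, 18 members were negative, against 4.15% of all genes. Genes of the Fanconi and homologous recombination list had a median of -0.46, and 3 of 24 passed, all negative, against 0.913% of all genes, or 7 without SNU1079 YC-1 replicate 1. They were XRCC2, which acts in homologous recombination (-1.39 ± 0.27), EXO1, the exonuclease of end resection (-1.06 ± 0.16), and RAD54L, a DNA translocase of homologous recombination (-0.70 ± 0.15). XRCC2 and RAD54L lost their calls in 9 and 10 of the 12 fits that each left out 1 library, MCM3 in 4 and EXO1 in 0. EXO1 (ENSG00000174371, chr1:241847967-241895148, plus strand) had 859, 1139 and 1122 in SNU1079 with YC-1, against 1107, 1160.3 and 1229 with DMSO. In RBE it had 2558, 2521 and 2463 with YC-1, against 1321, 1447 and 1302 with DMSO, and the groups did not overlap there. Of 28 genes of G2 and mitosis 0 passed for the difference, which is near the 1.7% of all genes that passed. Their median was 0.08, which turned negative after scaling to ribosomal protein genes (2 of 15 settings in all). Without SNU1079 YC-1 replicate 1, 6 of these 28 were positive, against 4.32% of all genes.

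**Figure D4:**
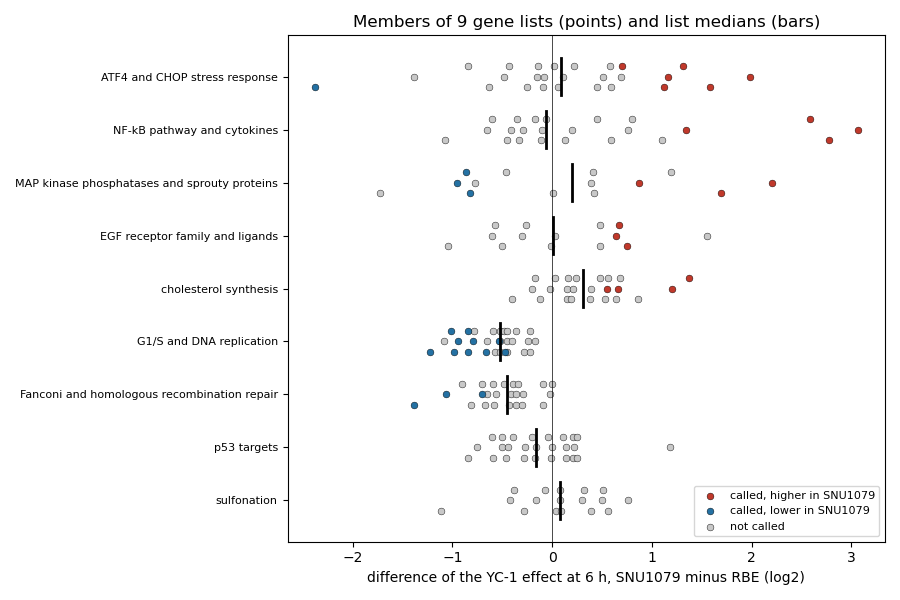
Difference of the YC-1 effect at 6 h, SNU1079 minus RBE (log2, horizontal axis), for each tested member (points) of 9 gene lists (rows), with bars at the list medians. Red and blue points passed the test; the points of the G1/S and replication list all lie below 0, and those of the p53 and sulfonation lists hold no call.

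E2F1 and MCM3 are shown with their promoters as members of this list that carry several E2F-type elements, TTTNNCGC, on either strand (RefSeq, GRCh38.p14, E2F1 at chr20:33686376-33686635, minus strand, MCM3 at chr6:52284733-52284992, minus strand). Capitals mark the matches, 4 in E2F1, of which a pair overlap, and 3 in MCM3.
E2F1: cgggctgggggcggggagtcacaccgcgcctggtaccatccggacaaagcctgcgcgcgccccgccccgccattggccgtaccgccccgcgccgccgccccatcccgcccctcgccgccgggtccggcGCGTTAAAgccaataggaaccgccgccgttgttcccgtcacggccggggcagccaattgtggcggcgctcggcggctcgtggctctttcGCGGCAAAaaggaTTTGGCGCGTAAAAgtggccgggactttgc
MCM3: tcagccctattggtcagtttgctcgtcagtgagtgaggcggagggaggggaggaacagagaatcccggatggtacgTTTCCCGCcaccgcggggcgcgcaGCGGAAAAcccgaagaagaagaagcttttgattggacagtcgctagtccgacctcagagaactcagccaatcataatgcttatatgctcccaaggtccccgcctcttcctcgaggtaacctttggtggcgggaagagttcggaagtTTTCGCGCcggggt
The letters were in 6.89% of all windows and in 12.44% of tested genes with a window. They were in 17 of the 24 list members with a window and in 7 of the 9 called ones.

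Single members of further lists differed, where 1.7% of all genes were called. Most of these counts are near that share and are not read as results about the lists. CYP1A1 (ENSG00000140465, chr15:74719542-74725610, minus strand), the detoxifying enzyme that is the standard target of the aryl hydrocarbon receptor, had 21.5, 13.7 and 20 in SNU1079 with YC-1, against 50.9, 30.4 and 56.3 with DMSO. RBE cells had 155, 147 and 143 with YC-1, against 47.1, 39.7 and 52.9 with DMSO. The DMSO levels overlapped, SNU1079 fell and RBE rose, and the difference was -2.91 ± 0.37 (limma adjusted p = 0.00292). It was the only called one of 9 tested targets of this receptor. HMOX1, the haem oxygenase, fell by 0.84 in SNU1079 and was the only one of 25 NRF2 targets with a call (-1.14 ± 0.20). BHLHE40, a repressor known as a target of HIF-1, rose by 1.07 in RBE and had 815 ± 81.9 with YC-1 against 929 ± 61 with DMSO in SNU1079 (SD, n = 3 each). Its difference of -1.27 ± 0.14 was the only call among 31 HIF-1 targets. HSPA5, the chaperone BiP, rose by 0.87 in RBE and gave -0.65 ± 0.12, the only call among 18 genes of the unfolded protein response. IRF1, a transcription factor of the interferon response, rose by 1.08 in RBE and gave -1.26 ± 0.17, the only call of 24 in its list. DNAJB1, a heat shock co-chaperone, fell by 0.64 in RBE and gave 0.65 ± 0.11, the only call of 20. BMF, a pro-apoptotic BCL2 family member, fell in both lines (log2 change -2.90 in SNU1079 and -1.35 in RBE) and gave -1.55 ± 0.34, the only call among 30 apoptosis regulators. KLF6 was the only called immediate early gene of 29 (0.68 ± 0.13), while FOS, at the border under DMSO, rose by 4.78 in SNU1079 and 4.64 in RBE, a difference of 0.14 ± 0.38 whose sign changed between settings. In the TGF-beta list of 29 genes, ID2, an inhibitor of DNA binding, was positive (1.17 ± 0.18) and INHBA, the activin subunit, negative (-1.41 ± 0.18). With each library left out in turn, the calls of BMF, KLF6, HSPA5 and HMOX1 were lost 10, 8, 7 and 4 times in 12 fits, and those of CYP1A1, BHLHE40, IRF1, DNAJB1, ID2 and INHBA 0 times. When SNU1079 YC-1 replicate 1 was left out and 8.47% of all genes were called, the immediate early list had 3 positive and 9 negative members and a median of -0.31, against 0.01 with all libraries. In that comparison the heat shock list had 5 positive members, the unfolded protein response list 4 negative and the NRF2 list 3 negative. The HIF-1 list then had 1 positive and 2 negative members, the apoptosis list 2 and 2, and the TGF-beta list 2 and 1, while the aryl hydrocarbon receptor and interferon lists had 1 negative member each.

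Of 23 tested Wnt genes, 3 were positive and 1 negative, against 0.787% and 0.913% of all genes, and their states under DMSO differed. Without SNU1079 YC-1 replicate 1 the counts were 4 and 2, against 4.32% and 4.15%. RNF43, a ligase that removes Wnt receptors and is expressed in both lines, had 23.4, 38.2 and 56.5 in SNU1079 with YC-1, against 15.3, 15.7 and 27.6 with DMSO. RBE cells had 4.31, 9.83 and 10.8 with YC-1, against 36.5, 60.5 and 50.9 with DMSO. The SNU1079 groups overlapped and the RBE groups did not, with a difference of 3.43 ± 0.57. TCF7, a Wnt-responsive transcription factor, was expressed in RBE only and stood at means of 9.29, 1.19, 12.3 and 19.1 in SNU1079 with YC-1, SNU1079 with DMSO, RBE with YC-1 and RBE with DMSO. TCF7L1 was expressed in neither line under DMSO. The ligand WNT7A was expressed in SNU1079 only, where it had 42.8, 46.2 and 40.4 with YC-1, against 162, 145 and 124 with DMSO, and was at 0 in every RBE library; its call was lost in 11 of 12 fits that each left out 1 library.

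None of 26 p53 targets had a called difference, where 1.7% of all genes did. In SNU1079 13 rose and in RBE 18, against 15.1% and 12.9% of all genes. Their median difference was -0.16. Without SNU1079 YC-1 replicate 1, 2 were positive and 5 negative, against 4.32% and 4.15% of all genes. CDKN1A, the p53-induced inhibitor of cyclin-dependent kinases, rose by 1.61 in SNU1079 and 1.36 in RBE, a difference of 0.25 ± 0.18 (limma adjusted p = 0.612), or 0.077 without that library. The count was also 0 among 17 sulfonation genes, 13 genes of cyclic GMP signalling, 20 YAP and TEAD targets, 15 ephrins and Eph receptors, 16 histone genes, 50 ribosomal protein genes and 13 mitochondrially encoded messenger RNAs. With SNU1079 YC-1 replicate 1 left out, 4.32% of all genes were positive and 4.15% negative. In that fit 3 YAP and TEAD targets were positive and 5 negative. Positive were also 2 sulfonation genes, 2 ephrins or Eph receptors, 1 cyclic GMP gene and 1 ribosomal protein gene. A single histone gene was negative, and the mitochondrial count remained 0. SULT1A1 (ENSG00000196502, chr16:28605196-28623625, minus strand) had 1912, 1322 and 1619 in SNU1079 with YC-1, against 1391, 1465 and 1478 with DMSO. RBE cells had 1792, 1778 and 1781 with YC-1, against 1848, 1559 and 1702 with DMSO. The groups overlapped in both lines, and the difference was 0.077 ± 0.17 (adjusted p = 0.911), with a sign that changed between settings. Its neighbour SULT1A2 had 0.56 ± 0.25 (limma adjusted p = 0.349). The SULT1A genes are similar in sequence, so their values are uncertain where reads could not be assigned to 1 of them. MYC had -0.21 ± 0.14 (adjusted p = 0.558), with the opposite sign when both times were pooled and a call without SNU1079 YC-1 replicate 1 (-0.32, adjusted p = 0.0458). A p above the threshold does not show that the lines responded alike.

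In 44 genes YC-1 was called in opposite directions in the lines, and the difference was called too; 20 rose in SNU1079 and fell in RBE, and 24 fell in SNU1079 and rose in RBE. Over all genes tested, only 46 were called in opposite directions, against 3115 called in the same direction. PMEPA1 (ENSG00000124225, chr20:57648392-57711536, minus strand), an inhibitor of TGF-beta signalling, had 4220.0, 2708 and 2690.3 in SNU1079 with YC-1, against 1467, 1603 and 1662 with DMSO. RBE cells had 9154, 9321 and 9073 with YC-1, against 15794, 14314 and 14718 with DMSO. No groups overlapped within a line, and the difference was 1.69 ± 0.20 (limma adjusted p = 0.00218), or 1.48 without SNU1079 YC-1 replicate 1, the highest of its group. DLC1 (ENSG00000164741), a GTPase-activating protein, had 890.3, 954 and 933 in SNU1079 with YC-1, against 2220.2, 1999.5 and 2085 with DMSO. In RBE it had 993, 949 and 1200.0 with YC-1, against 607, 750.4 and 839 with DMSO. It fell in SNU1079 and rose in RBE, a difference of -1.70 ± 0.18 (limma adjusted p = 0.000922). Of the same kind as PMEPA1 were the transcriptional regulator ZNF217 (1.29), the factor of messenger RNA 3′ end formation PCF11 (1.52), the helicase DDX10 (1.44), GPR155 (1.51) and NPIPB4 (1.501), whose family members are nearly identical and make its value uncertain. With each library left out in turn, GPR155, NPIPB4 and ZEB1-AS1 lost their calls in 2, 5 and 11 of 12 fits. Of the same kind as DLC1 were NHSL1 (-2.76), the semaphorin SEMA7A (-1.26), FRMD6 (-1.25), PPP1R3E, a glycogen-targeting phosphatase subunit (-1.61), and the noncoding RNAs FOXD2-AS1 (-2.25) and ZEB1-AS1 (-1.45). The strand setting of the authors' counting is not given in the sources used here, so reads of these antisense transcripts and of overlapping genes may not be separated.

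Outside the lists, the most negative difference among genes with a mean of at least 100 in some group was that of PDE4D (ENSG00000113448, chr5:58969038-60522120, minus strand), a cyclic AMP phosphodiesterase. It had 6.42, 18.4 and 8.8 in SNU1079 with YC-1, against 157, 142 and 159 with DMSO. RBE cells had 205, 259 and 283 with YC-1, against 125, 209 and 154 with DMSO. SNU1079 fell far below every other library, the RBE groups overlapped, and the difference was -4.41 ± 0.44 (limma adjusted p = 0.00071), or -4.11 without SNU1079 YC-1 replicate 1. NEDD9 (ENSG00000111859, chr6:11183298-11382348, minus strand), a scaffold of adhesion signalling, had 2156, 2003 and 1979 in SNU1079 with YC-1, against 2223, 2077 and 2283 with DMSO. RBE cells had 1707, 1712 and 1483 with YC-1, against 473, 467 and 489 with DMSO. RBE rose, its YC-1 level remaining under that of SNU1079, the SNU1079 groups overlapped, and the difference was -1.87 ± 0.12 (limma adjusted p = 3.01e-05). TSC22D3, a glucocorticoid-induced leucine zipper protein, rose by 2.05 in RBE and had 155, 62.4 and 80.7 in SNU1079 with YC-1 against 75.6, 77.8 and 79.8 with DMSO. Replicate 1 again stood above its mates, and the difference was -1.81 ± 0.35 with it and -2.18 without it, while the call was lost in 10 of the 12 fits that each left out 1 library. NCKAP5 (-2.12) and PPARGC1B, a coactivator of mitochondrial genes (-1.87), fell in both lines and further in SNU1079, with calls lost in 4 and 6 of those fits.

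On the positive side, MMP14 (ENSG00000157227, chr14:22836557-22849027, plus strand), a membrane-bound metalloprotease, had 153, 69.3 and 76.4 in SNU1079 with YC-1, against 16.8, 14 and 10.5 with DMSO. RBE cells had 2000.4, 2209.6 and 2061 with YC-1, against 2133, 1887 and 2009 with DMSO. The gene was high in RBE under both treatments and low in SNU1079, where it rose, and the difference was 2.64 ± 0.36 (limma adjusted p = 0.0046) with SNU1079 YC-1 replicate 1 and 2.29 without it. LPCAT1 (ENSG00000153395, chr5:1456480-1523977, minus strand), an acyltransferase of membrane phospholipids, had 7332, 7435 and 6420.1 in SNU1079 with YC-1, against 10326, 9989 and 9898 with DMSO. In RBE it had 852, 975 and 1057 with YC-1, against 5192, 4924 and 4779 with DMSO. It fell in both lines and much further in RBE, which gave 1.86 ± 0.13 (adjusted p = 3.87e-05). PKDCC, a secreted tyrosine kinase, and RGS4, which shortens G protein signals, followed that pattern, with log2 changes of -0.92 and -0.75 in SNU1079, -2.99 and -2.48 in RBE, and differences of 2.07 ± 0.26 and 1.73 ± 0.30. AOC3, an amine oxidase (1.99), rose in both lines, and PRKCH, a protein kinase C (1.95), rose in SNU1079. RGS4 and PRKCH lost their calls in 2 and 3 of 12 fits that each left out 1 library.

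Genes expressed in a single line under DMSO made up 43 of the 285 calls. Of these, 24 were expressed in RBE only (8.42% of calls, 4.86% of genes tested) and 19 in SNU1079 only (6.67% of calls, 4.04% of genes tested). For the 24 expressed in RBE only, 20 rose in SNU1079, the line where they were not expressed, and in 15 the SNU1079 YC-1 mean remained under 10. Genes under 10 in all 3 SNU1079 DMSO libraries have little room to fall there. The direction was thus largely set by the state, and the count is not a result about these genes. SMO, the Hedgehog signal transducer, is an example, with 6.45, 2.96 and 4.56 in SNU1079 with YC-1 and 0 in all 3 libraries with DMSO, against 199, 243 and 359 in RBE with YC-1 and 283, 260.0 and 286 in RBE with DMSO. ARHGAP31, a GTPase-activating protein of CDC42 and RAC1, had 16.2, 10.3 and 10.4 in SNU1079 with YC-1 and 2.13, 0.894 and 0 with DMSO, against 590.4, 552 and 633 in RBE with YC-1 and 773, 975 and 882 in RBE with DMSO. These are traces of the RBE level, and fitted differences from such values depend on the pseudocount of 1. SV2A, TCEAL3, METTL7A and KIAA1549L were further cases, with SNU1079 YC-1 means of 7.94, 8.25, 2.99 and 4.8. Over 52 genes private to RBE, the SNU1079 YC-1 libraries held 0.0619% to 0.104% of the RBE level, against 0.00387% to 0.00846% in the SNU1079 DMSO libraries. The part of RNA from the other line in these low values was not tested. The calls of METTL7A and TCEAL3 were lost in 8 and 9 of 12 fits that each left out 1 library. In 3 of the 24 genes, among them the growth factor VEGFC and the ligand WNT5B, every SNU1079 library was at 0. WNT5B had means of 228 in RBE with YC-1 and 937 with DMSO, so its positive difference came from the RBE fall alone.

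For the 19 genes expressed in SNU1079 only, 8 were at 0 in every RBE library, so that their difference was the SNU1079 change. NHS (ENSG00000188158, chrX:17375420-17735994, plus strand), a regulator of the actin cytoskeleton, had 88.7, 168 and 132 in SNU1079 with YC-1, against 720.3, 636 and 613 with DMSO. The protocadherin PCDH17 fell likewise, with means of 37.6 with YC-1 and 165 with DMSO. TSPYL2, a nucleosome assembly family member, rose, with 604, 587 and 562 with YC-1 against 134, 179 and 99.9 with DMSO. Genes that YC-1 raised in RBE from under 10 included PRPS2 of nucleotide synthesis, with means of 7.21 with YC-1 and 0.853 with DMSO, RGS16, with 28 and 0.703, and SELPLG, the P-selectin ligand, with 207 and 5.8. These 3 calls were lost in 9, 9 and 11 of 12 fits that each left out 1 library. PGBD1, at the border in SNU1079, had 85.9, 110.0 and 119 there with YC-1, against 12.9, 12.7 and 8.16 with DMSO, and a difference of 2.80 ± 0.30.

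The 16 h libraries, none of which entered the 6 h comparison, offered the same contrast again. There the YC-1 effect differed for 1632 of 17246 genes (9.46%). Of the 285 genes called at 6 h, 139 (48.8%) were called with the same sign at 16 h, 5 with the opposite sign, and 141 were not called. The sign of the difference was the same in 256. Of the positive calls 75 of 132 were called again, beside 5.25% of all genes called positive at 16 h, and of the negative ones 64 of 153, beside 4.22%. CCL20 had 3.07 at 6 h and 6.16 at 16 h, DUSP4 2.21 and 3.48, JAG1 1.203 and 2.28, and MMP14 2.64 and 3.97. ASNS had 1.59 at 6 h and 1.65 at 16 h, while CYP1A1 (-2.91 and -0.83) and E2F1 (-1.01 and -0.48) were not called at 16 h. The genes with opposite calls were DKC1, INHBA, RNF207, SOD2 and TRAF1, and INHBA had -1.41 at 6 h and 1.53 at 16 h. CXCL8, without a call at 6 h, had 3.37 at 16 h (limma adjusted p = 0.000362). Among the 16 h libraries, SNU1079 YC-1 replicate 2 had a mitochondrial share of 3.38%, against 18.1% and 22.1% in its mates. Without it 145 of the 285 genes were called the same way.

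**Figure D5:**
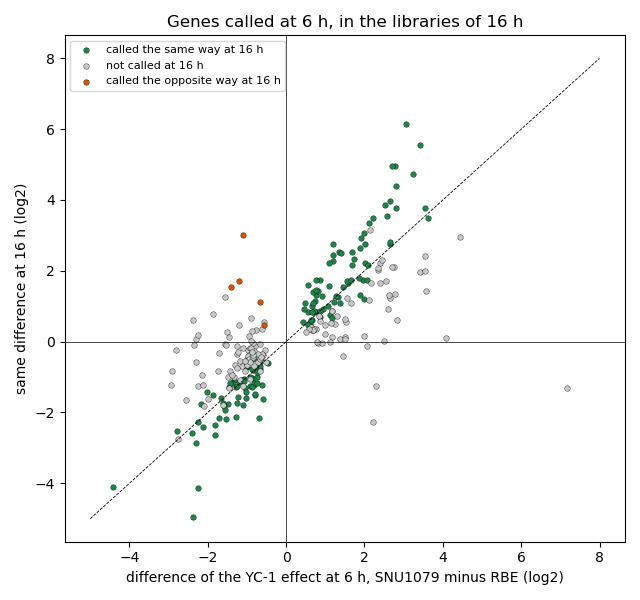
Difference of the YC-1 effect, SNU1079 minus RBE, at 6 h (horizontal axis) and at 16 h (vertical axis), both in log2, for the 285 genes called at 6 h; the dashed line marks equal values. The 139 green points passed the test with the same sign in the 16 h libraries, the 141 grey points did not pass, and the 5 orange points passed with the opposite sign.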

How the data were processed

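Messenger RNA was sequenced in 24 libraries, of which the 12 at 6 h were compared here. The groups held 3 libraries each, called biological replicates in the design text, and 12 libraries at 16 h served as a separate set. Per the labels' protocols, libraries were made with a stranded Illumina TruSeq kit after Qiagen extraction. The authors deposited 1 table of normalised counts, which is a signal without whole reads and without a fixed sum per library. STAR and DESeq2 were used with hg38, per the submitters' processing notes. The counter, its strand setting and its annotation were not given in the sources used here. Only 38.3% to 65.7% of low values in the 6 h libraries came within 0.1 of a multiple of the commonest low value, so whole reads were not recovered and no count test was run. Rough depths divide the library sum by that value.

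The comparison used limma 3.58.1 in R 4.3.3 on log2(normalised count + 1), for genes with at least 10 in at least 3 of the 12 libraries. The fit had 1 mean per group, 8 residual degrees of freedom and an intensity trend, and tests were two-sided with Benjamini-Hochberg adjustment over all 16766 genes and a threshold of 0.05. Fold changes on this scale understate changes of low genes. The 16 h libraries were fitted alone in the same way. The smallest p of the exact permutation within lines (400 assignments) is 0.005.

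Of the table's rows, 24157 were at 0 in all libraries; 4727 rows were named from an identifier table, and 47 pseudoautosomal copies on the Y chromosome were left out. No column of another sample was present. Coordinates came from GENCODE 29 on GRCh38 by Ensembl identifier (16242 tested genes), promoters from RefSeq on GRCh38.p14.

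The gene lists, motifs and rules were chosen with earlier results of these data known. Named genes had a called difference and a mean that reached 100 in some group: the 12 most positive and 12 most negative, the 8 of each sign expressed in both lines, up to 8 per direction with opposite calls, up to 4 called members per list, and 14 genes of interest with or without a call. Other genes, among them PCK2, CARS, DUSP7, DUSP16, MFNG, IL6, RNF43, TCF7, TCF7L1, CCNE1, CDC6, MCM2, MCM4, MCM7, GINS2, VEGFC and WNT5B, were named after their values were seen. Values of a few genes under these rules are not reported here. Alternatives covered the pseudocount, the filter, 4 scalings, the variance model, array weights, the libraries fitted, a block for the replicate number, a minimum fold, both times pooled and the removal of each library. Figures used matplotlib 3.10.9 in Python 3.11.15.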

Additional observations from a re-analysis of the deposited data

Results flagged for a closer look

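The difference between the lines was itself tested, and 285 genes passed it. Genes called in opposite directions in SNU1079 and RBE were picked by the size of the difference, up to 8 in each sense. Open to this choice were 16 genes that rose in SNU1079 and 21 that fell there. The differences of the 8 picked that rose in SNU1079 and fell in RBE were 2.58 for CXCL3, 1.44 for DDX10, 1.51 for GPR155, 3.25 for KIAA1549L, 1.501 for NPIPB4, 1.52 for PCF11, 1.69 for PMEPA1 and 1.29 for ZNF217. For the 8 picked that fell in SNU1079 and rose in RBE they were -2.91 for CYP1A1, -1.70 for DLC1, -2.25 for FOXD2-AS1, -1.25 for FRMD6, -2.76 for NHSL1, -1.61 for PPP1R3E, -1.26 for SEMA7A and -1.45 for ZEB1-AS1. CXCL3 was expressed in SNU1079 only and KIAA1549L in RBE only under DMSO, and the other 14 genes in both lines. Opposite calls were not confined to these genes. ID2 (1.17, up in SNU1079) and E2F2 (-0.98, down in SNU1079), named above as list members, had them too.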

How the results depend on the processing

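The 285 differences (132 positive, 153 negative, 220 expressed in both lines, 44 in opposite directions, 139 called again at 16 h) ranged over 123 to 1420, 59 to 724, 55 to 696, 95 to 1259, 23 to 130 and 72 to 325 when 1 library was left out, each highest value being without SNU1079 YC-1 replicate 1. The 5275 genes called in SNU1079 ranged over 4139 to 6759 and the 4631 in RBE over 3506 to 6583. The cause was not tested. With array weights, which weigh libraries by their spread, the counts were 2653, 1370, 1283, 2245, 217 and 899, with 8017 in SNU1079 and 8180 in RBE, and all 285 genes were among those called. With both times pooled they were 715, 405, 310, 512 and 88, with 8084 and 8019. For a difference beyond 1.5-fold they were 26, 18, 8, 15, 1 and 17, with 1158 and 940. A pseudocount of 10 gave 452, with 225 positive and 231 called again at 16 h. Without a filter on low values 27 had opposite directions and 87 were called again. Scaling to ribosomal protein genes left 75 positive.

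Replicate numbers were not taken as pairs: the deviations of same-numbered YC-1 and DMSO libraries correlated at -0.327, 0.254 and -0.331 in SNU1079 and -0.017, 0.116 and -0.077 in RBE. With the replicate number as a block within each line, 32 genes passed (22 positive, 10 negative, 25 expressed in both lines, 10 in opposite directions, 23 called again at 16 h), all among the 285.

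The difference in mitochondrial share was -1.53 to 0.3186 percentage points, the positive value being without SNU1079 YC-1 replicate 1. Signs turned for INHBA with both times pooled (0.0619) and for uncalled genes. MAML2 was at 0.0917 with a pseudocount of 10, 0.10 with array weights, 0.61 pooled and -0.53 to 0.34 with a library left out. FOS was at -0.29 with array weights, -0.90 pooled and -0.12 to 0.29 with a library left out. SULT1A1 was at -0.0681 scaled to ribosomal protein genes, -0.10 pooled and -0.0517 to 0.21 with a library left out. MYC was at 0.20 pooled, and DDIT3 at -0.16 to 0.0180 with a library left out. For the named genes with a call, 1684 of the alternative values kept the call, 367 lost it and 1 turned sign. Depth and 3 libraries a group limit what can be called, so a missing call leaves a difference between the lines undecided.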
